A study of Arabidopsis thaliana with 8 samples.

Results

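The effect of the dominant bzr1-1D allele was measured in Arabidopsis thaliana seedlings that lack 4 phytochrome-interacting factors (PIFs). The 2 libraries of pifq;bzr1-1D were compared with the 2 libraries of pifq over every gene in the count files, so 4 of the 8 libraries of the series make up the comparison. The pifq line lacks PIF1, PIF3, PIF4 and PIF5 and has a normal BZR1 gene, and pifq;bzr1-1D carries the bzr1-1D allele on top of the same losses. The remaining libraries, 2 of wild-type Col-0 and 2 of bzr1-1D, measure the same allele where the PIFs are present and were used only to show where the effect differs. All seedlings were of the Col-0 ecotype, were 5 days old, had grown in darkness, and stood on MS medium with BRZ, which blocks brassinosteroid synthesis, so all 4 genotypes share the lack of light and of most of their own hormone. RNA came from whole etiolated seedlings. The labels do not tell whether replicates 1 and 2 were grown separately, so each p-value rests on library-to-library spread that may be technical.

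Brassinosteroids are plant steroid hormones that promote cell elongation. They act through a receptor at the cell surface and a kinase cascade that ends in the transcription factors BZR1 and BES1, which switch on growth genes and switch off the genes that make the hormone. The bzr1-1D allele keeps BZR1 active without hormone. PIFs are helix-loop-helix transcription factors that accumulate in the dark, drive elongation and hold back greening, and BZR1 and PIF4 are known to bind each other and many of the same promoters. The comparison asks what active BZR1 still does to transcripts when these partners are missing.

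The gene counts of the 4 libraries were 25.8 and 24.6 M (M, mega) in pifq and 29.5 and 16.1 M in pifq;bzr1-1D. Levels are given as CPM (counts per M of the library's effective size), always in the order replicate 1 and replicate 2, and n is 2 libraries per genotype throughout. The 2 pifq;bzr1-1D libraries differed more than the other pairs, with a chi-square per gene of 5.5 against 1.72 in pifq, 2.17 in bzr1-1D and 2.47 in Col-0. Their chloroplast-encoded genes took 1.5% and 0.934% of the counts, against 0.998% and 1.14% in pifq. Of the 5 genes altered in these lines, PIF4 (AT2G43010) went from 25.03 and 26.1 to 49.9 and 47.5 CPM (log2 fold change 0.94 ± 0.06 SE) and PIF5 (AT3G59060) from 10.98 and 11.8 to 22.2 and 19.6 CPM (0.89 ± 0.08), although both genotypes carry the same mutations in them. BZR1 (AT1G75080) itself rose from 33.2 and 33.8 to 47.7 and 49.0 CPM (0.52 ± 0.05). PIF1 (AT2G20180) had 21.5 and 22.4 CPM in pifq and 22.1 and 19.3 CPM in pifq;bzr1-1D and was not called. PIF3 (AT1G09530) was called higher. Its log2 fold change was 0.0852 without pifq replicate 2 and 0.1106 without pifq;bzr1-1D replicate 1. A gene's count gives no position within the transcript, so these levels check neither the pifq mutations nor the bzr1-1D change, which alters the protein. Mesophyll markers summed to 12800 and 12960 CPM in pifq and 12910 and 12500 CPM in pifq;bzr1-1D, and epidermis markers to 391 and 393 against 455 and 462 CPM. In each of these sets of 4 markers, 1 was called higher and 1 lower. The called rise in epidermis was CER6, a wax gene, and the called fall in mesophyll was RCA. Markers of dividing cells summed to 15.34 and 15.06 against 10.83 and 8.96 CPM, seed markers to 42.3 and 42.9 against 71.05 and 68.01 CPM, and root hair markers to 8.56 and 7.53 against 1.44 and 2.22 CPM. Of 4 markers of dividing cells 2 were called lower and none higher, and of 9 seed markers 6 higher and 1 lower. Of all tested genes 28.1% were called higher and 27.8% lower.

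Even without the PIFs, transcripts of many genes differed with active BZR1, and most of the called differences were small. Of 21221 genes tested, 11860 were called at an edgeR adjusted p under 0.05, which is 55.9%, with 5958 higher (28.1%) and 5902 lower (27.8%) in pifq;bzr1-1D. A change of 2-fold or more was seen for 800 of the higher genes (3.77% of those tested) and 817 of the lower genes (3.85%), and 10243 called genes changed by less. DESeq2 called 8855 genes, and 9709 were called without pifq;bzr1-1D replicate 1. At 4-fold or more 222 genes were higher and 176 lower, and at 16-fold or more 66 and 34. The median log2 fold change over all tested genes was −0.0054. The counts given for gene lists are read against these shares.

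Among genes that averaged at least 10 CPM in the higher genotype, the 10 that fell most included genes of brassinosteroid and flavonoid synthesis. AT5G57785, annotated as an uncharacterized protein, had 77.0 and 80.6 CPM in pifq and 0.899 and 0.981 CPM in pifq;bzr1-1D (log2 fold change −6.40 ± 0.11, edgeR adjusted p = 1.94e-30). BR6OX2, KAT5, CHS, FLS1, CHIL and CYP90D1, described with their pathways, were also among these 10. The other 3 were the following genes. HRGP1 (AT3G54590), a hydroxyproline-rich glycoprotein, fell from 15.02 and 9.41 to 1.01 and 1.05 CPM (−3.58 ± 0.23). AT4G22505, of the lipid-transfer protein family, fell from 11.8 and 9.001 to 0.576 and 0.589 CPM (−4.15 ± 0.23). AT3G05727, annotated as a pollen coat protein family member, fell from 11.9 and 11.8 to 1.22 and 1.70 CPM (−3.08 ± 0.19). The 2 pifq libraries themselves differed for HRGP1, and reads of such repeat-rich genes may be shared with near-identical copies, so its value is uncertain.

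Under the same limit of 10 CPM, the genes that rose most included a methyltransferase, a peroxidase and membrane proteins. PXMT1 (AT1G66700), a methyltransferase, had 0.856 and 0.368 CPM in pifq and 43.0 and 40.5 CPM in pifq;bzr1-1D (6.07 ± 0.15, adjusted p = 3.2e-26). PER4 (AT1G14540), a class III peroxidase, went from 0.506 and 0.409 to 17.6 and 16.3 CPM (5.20 ± 0.18). MLO12 (AT2G39200), of the membrane protein family named for barley mildew resistance, rose from 7.90 and 7.41 to 123 and 114 CPM (3.96 ± 0.07). PLA2A (AT2G26560), a lipid acyl hydrolase, rose from 2.53 and 3.56 to 33.2 and 33.4 CPM (3.45 ± 0.10). AT1G26380, of the FAD-binding berberine family, rose from 1.25 and 1.105 to 17.4 and 21.6 CPM (4.02 ± 0.16). Further genes that rose were AT1G26240, a proline-rich extensin-like gene (from 0.895 and 0.491 to 36.8 and 22.2 CPM, 5.45 ± 0.24), AT5G18840, a major facilitator family transporter (from 0.856 and 1.35 to 18.6 and 17.98 CPM, 4.06 ± 0.15), AT5G24240, annotated as a phosphatidylinositol 4-kinase gamma-like protein (from 1.91 and 1.35 to 17.99 and 22.5 CPM, 3.59 ± 0.14), and the seed albumin gene SESA5. The 2 pifq;bzr1-1D libraries of AT1G26240 lay apart, but both were far above pifq.

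**Figure D1:**
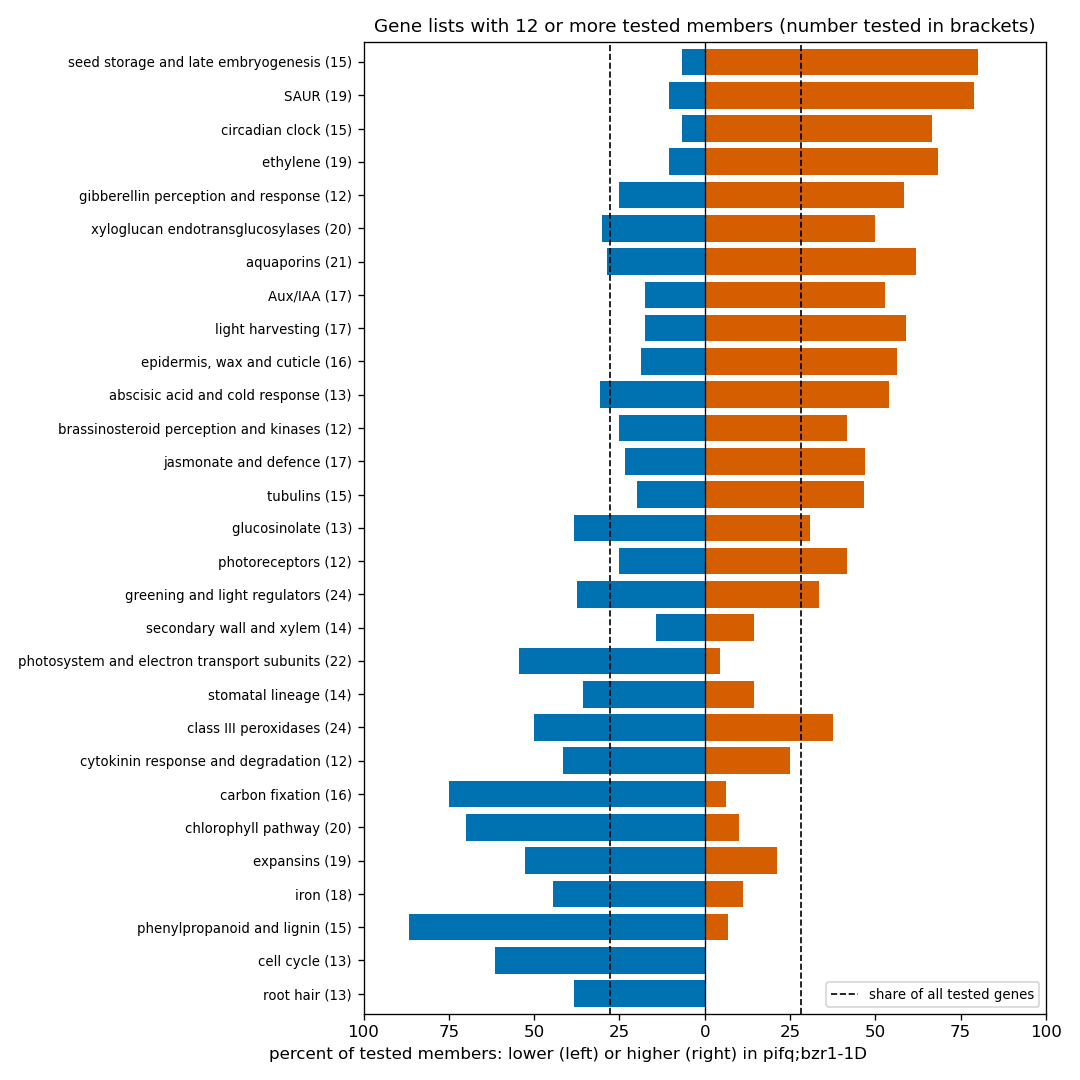
Percent of the tested members of each gene list that were called higher (right) or lower (left) in pifq;bzr1-1D than in pifq, for the 29 lists with 12 or more tested members, ordered by median log2 fold change; dashed lines mark the shares of all tested genes, 28.1% and 27.8%. SAUR, seed storage, ethylene and clock genes lie at the higher end, and phenylpropanoid, carbon fixation, chlorophyll, cell cycle and root hair genes at the lower end.

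All 6 genes of the late steps of brassinosteroid synthesis fell without the PIFs, with a median log2 fold change of −2.94 against −0.0054 over all genes, and 4 of them fell by 2-fold or more. BR6OX2 (AT3G30180), the oxidase that completes brassinolide, had 287 and 283 CPM in pifq and 4.03 and 4.38 CPM in pifq;bzr1-1D (log2 fold change −6.10 ± 0.06, adjusted p = 7.46e-37). DWF4 (AT3G50660), the hydroxylase that limits the rate of the pathway, had 97.5 and 96.5 CPM in pifq and 12.8 and 11.5 CPM in pifq;bzr1-1D (−2.97 ± 0.06). CYP90D1 (AT3G13730), a hydroxylase, fell from 13.5 and 13.5 to 1.69 and 1.57 CPM (−3.03 ± 0.14). BR6OX1 (AT5G38970), the other oxidase, fell from 8.80 and 8.59 to 1.22 and 1.05 CPM (−2.90 ± 0.17). Replicates of each gene lay close together and the genotypes were far apart. The remaining members moved least. CPD (AT5G05690), a cytochrome P450 of the pathway, fell from 409.6 and 425 to 297 and 306 CPM (−0.47 ± 0.04). ROT3 (AT4G36380), a related enzyme chosen after its values were seen, fell from 44.9 and 43.9 to 28.0 and 27.9 CPM (−0.67 ± 0.05).

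Where the PIFs were present the same 6 genes also fell in bzr1-1D, and the sizes differed in 4 of them. BR6OX2 had 346 and 345 CPM in Col-0 and 31.3 and 29.2 CPM in bzr1-1D, which is −3.51 ± 0.04 on the log2 scale, and the difference between the effects without and with the PIFs was −2.59 ± 0.09 (edgeR adjusted p = 2.95e-21). DWF4 likewise fell further without the PIFs (difference −1.11 ± 0.08, adjusted p = 3.38e-13), and so did ROT3 (difference −0.37 ± 0.07, adjusted p = 3.42e-05). CPD fell less (difference 0.48 ± 0.05, adjusted p = 6.19e-10). For CYP90D1 and BR6OX1 the difference was not called, at −0.43 ± 0.22 (adjusted p = 0.0973) and −0.26 ± 0.25 (adjusted p = 0.435). Over all tested genes this difference was called for 48.8%, with 21.9% more positive and 26.9% more negative without the PIFs.

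**Figure D2:**
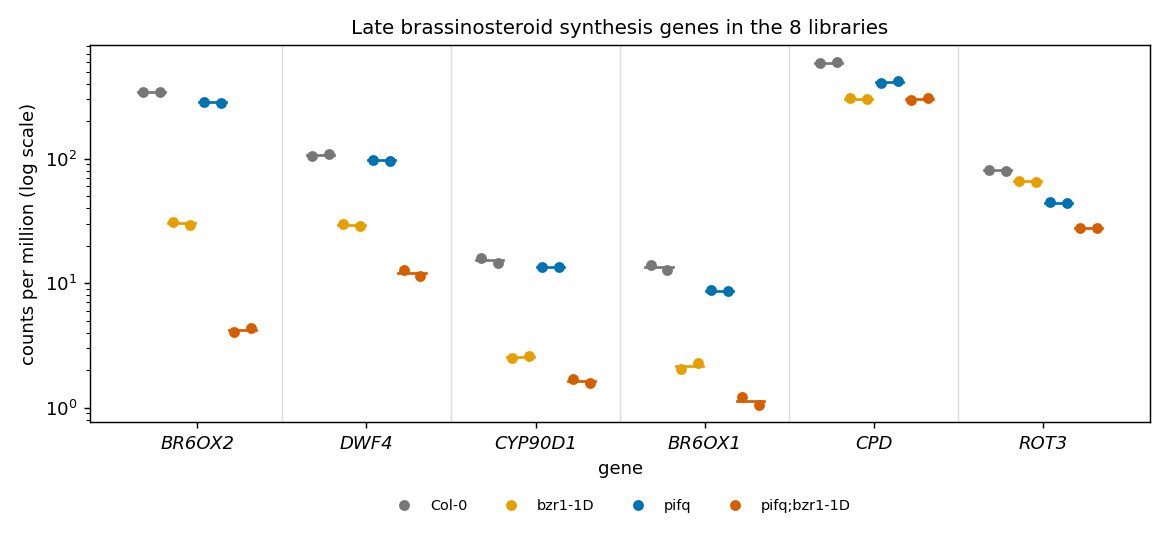
CPM (log axis) of the 6 late brassinosteroid synthesis genes in all 8 libraries, where each point is a library and each short line the mean of a genotype. BR6OX2 drops from 287 and 283 CPM in pifq to 4.03 and 4.38 CPM in pifq;bzr1-1D, below the bzr1-1D libraries, whereas CPD and ROT3 drop by less.

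The early steps did not follow. Of 8 sterol and early brassinosteroid genes 3 rose and 3 fell (1 fell without pifq replicate 1 or pifq;bzr1-1D replicate 2), with a median of 0.0019. SMT1 (AT5G13710), the first enzyme of the plant sterol branch, rose from 158 and 154 to 274 and 259.9 CPM (0.78 ± 0.04). DET2 (AT2G38050), a steroid reductase of the pathway, fell from 15.1 and 15.3 to 11.4 and 11.4 CPM (−0.42 ± 0.09). Among the 6 genes that inactivate the hormone, BAS1 (AT2G26710), a hydroxylase, rose from 21.0 and 21.8 to 34.3 and 33.3 CPM (0.67 ± 0.06). Its relative SOB7 (AT1G17060) rose from 18.4 and 16.8 to 26.6 and 27.1 CPM (0.61 ± 0.07). The glucosyltransferase gene UGT73C5 (AT2G36800) fell from 42.9 and 43.5 to 36.4 and 37.3 CPM (−0.23 ± 0.05). Signalling genes changed moderately: of 12 receptor, kinase and phosphatase genes 5 rose and 3 fell, where 28.1% of all tested genes rose and 27.8% fell. The negative regulator BIN2 (AT4G18710) rose from 291 and 284 to 431 and 406 CPM (0.54 ± 0.04). The receptor-like kinase gene BRL1 (AT1G55610) fell from 7.04 and 7.36 to 3.27 and 4.32 CPM (−0.98 ± 0.14). Among the BZR1 relatives BES1 (AT1G19350) rose from 88.4 and 89.1 to 115 and 116 CPM (0.38 ± 0.04). BEH2 (AT4G36780) fell from 155 and 154 to 118 and 119 CPM (−0.39 ± 0.04). BES1 went the other way where the PIFs were present, with 76.5 and 76.7 CPM in Col-0 and 45.1 and 44.4 CPM in bzr1-1D (log2 fold change −0.77 ± 0.04, difference 1.16 ± 0.06, adjusted p = 2.1e-17).

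Flavonoids are protective phenolic pigments that seedlings make in light, and phenylpropanoids are their precursors and those of lignin. Their genes fell together in pifq;bzr1-1D: 6 of the 7 flavonoid enzyme genes tested, each by 2-fold or more, all 3 regulators tested, and 13 of 15 phenylpropanoid and lignin genes, with 1 higher. The other 5 flavonoid enzymes and 3 regulators on these lists had too few counts to be tested, so these counts are of the genes that passed the filter and not of the whole lists. CHS (AT5G13930), the enzyme of the first step, had 140.5 and 133 CPM in pifq and 5.11 and 7.65 CPM in pifq;bzr1-1D (log2 fold change −4.50 ± 0.08, adjusted p = 1.94e-30). FLS1 (AT5G08640), which makes flavonols, fell from 16.97 and 18.6 to 1.19 and 1.504 CPM (−3.77 ± 0.15). The glycosyltransferase gene UGT78D1 (AT1G30530) fell from 24.6 and 23.8 to 7.19 and 6.28 CPM (−1.82 ± 0.09). CHI (AT3G55120), chalcone isomerase, fell from 13.8 and 13.0 to 5.97 and 6.08 CPM (−1.16 ± 0.11). CHIL (AT5G05270), a chalcone isomerase family gene outside that list, fell from 11.8 and 14.6 to 0.863 and 1.31 CPM (−3.68 ± 0.18). The activator of flavonol genes MYB111 (AT5G49330) fell from 19.0 and 19.0 to 3.96 and 2.88 CPM (−2.42 ± 0.12). MYB75, which activates anthocyanin genes, had 22 and 21 counts in the pifq libraries and 7 and 0 in those of pifq;bzr1-1D.

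The high starting levels were those of pifq. CHS had 7.50 and 7.61 CPM in Col-0 and 2.29 and 2.70 CPM in bzr1-1D, and the summed level of the flavonoid enzyme list was 217 and 211 CPM in pifq, 27.6 and 30.3 CPM in pifq;bzr1-1D, 27.6 and 28.2 CPM in Col-0 and 21.0 and 20.2 CPM in bzr1-1D. The sums of pifq;bzr1-1D thus lay close to those of Col-0 and far below those of pifq. With the PIFs 1 flavonoid enzyme gene rose and 3 fell in bzr1-1D, and 6 of the 7 fell further without the PIFs than with them. KAT5 (AT5G48880), a 3-ketoacyl-CoA thiolase gene, had the same shape, with 9.96 and 11.5 CPM in pifq and 0.612 and 0.196 CPM in pifq;bzr1-1D but 0.502 and 0.376 CPM in Col-0 and 0.611 and 0.726 CPM in bzr1-1D (log2 fold change −4.52 ± 0.22 without the PIFs, difference −5.07 ± 0.50, adjusted p = 3.47e-10).

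In the phenylpropanoid list OMT1 (AT5G54160), a methyltransferase of lignin and flavonol synthesis, fell from 151 and 153 to 76.5 and 73.0 CPM (−1.02 ± 0.04). CAD4 (AT3G19450), an alcohol dehydrogenase of lignin synthesis, fell from 41.2 and 39.8 to 17.2 and 16.1 CPM (−1.27 ± 0.06). FAH1 (AT4G36220), which makes sinapate precursors, fell from 8.29 and 8.96 to 1.47 and 1.96 CPM (−2.38 ± 0.17). 4CL3 (AT1G65060), a CoA ligase of the flavonoid route, fell from 7.82 and 8.02 to 1.26 and 1.77 CPM (−2.45 ± 0.18). PAL1 (AT2G37040), the entry enzyme, went from 32.3 and 32.6 to 15.5 and 19.0 CPM (−0.95 ± 0.08) but rose with the PIFs, from 28.3 and 29.9 CPM in Col-0 to 42.5 and 36.6 CPM in bzr1-1D (difference −1.40 ± 0.10, adjusted p = 2.89e-13). In all, 11 of the 15 phenylpropanoid genes had a more negative effect without the PIFs and 1 a more positive one.

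**Figure D3:**
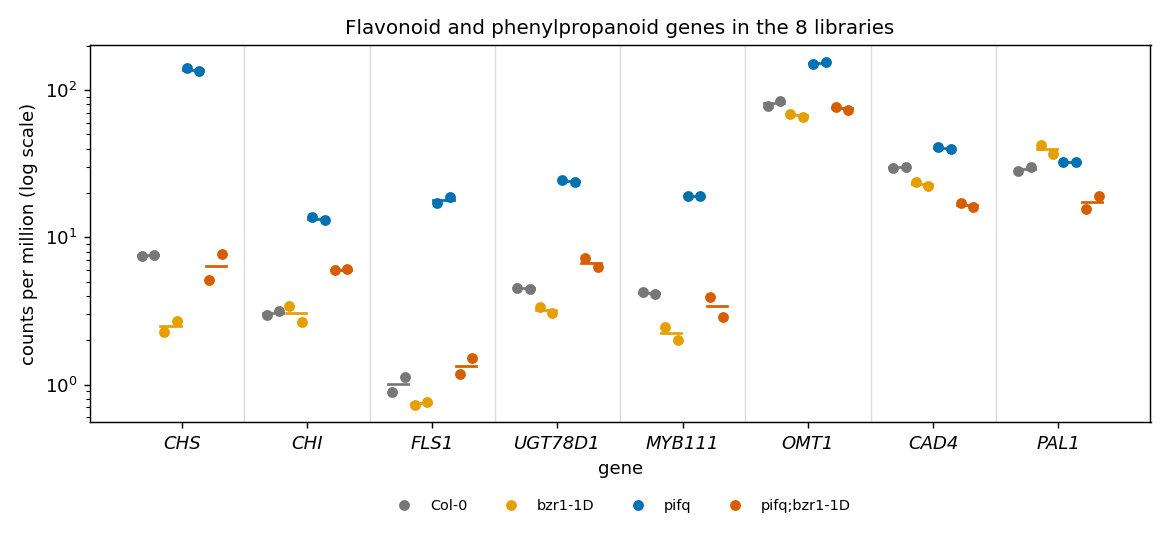
CPM (log axis) of flavonoid genes (CHS, CHI, FLS1, UGT78D1), the regulator MYB111 and phenylpropanoid genes (OMT1, CAD4, PAL1) in all 8 libraries, with points for libraries and short lines for genotype means. The 2 pifq libraries are the highest for every gene but PAL1, and those of pifq;bzr1-1D lie well below them.

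Nuclear genes for plastid proteins did not move as a block. Seedlings without PIFs express photosynthesis genes in the dark, and in pifq;bzr1-1D more antenna genes rose than fell, while more genes of photosystems, carbon fixation and chlorophyll synthesis fell than rose. Of 17 light-harvesting genes 10 rose and 3 fell (median 0.20). LHCB1.4 (AT2G34430), an antenna protein of photosystem II, went from 2415 and 2437 to 5432 and 5930.1 CPM (1.23 ± 0.04). LHCA4 (AT3G47470), of photosystem I, rose from 2521 and 2584 to 3268 and 3338 CPM (0.37 ± 0.03), but LHCB2.3 (AT3G27690) fell from 166 and 163 to 95.9 and 103 CPM (−0.73 ± 0.04). The LHCB1 and LHCB2 genes have near-identical copies, so single values are uncertain. The summed level of the list was 73830 and 75120 CPM in pifq and 91750 and 93850 CPM in pifq;bzr1-1D. By contrast 12 of 22 photosystem and electron transport genes fell and 1 rose (none without pifq replicate 1, pifq replicate 2 or pifq;bzr1-1D replicate 2), and 12 of 16 carbon fixation genes fell and 1 rose. NPQ4 (AT1G44575), the PsbS protein of photoprotection, fell from 353 and 355 to 224 and 238 CPM (−0.62 ± 0.04). RCA (AT2G39730), Rubisco activase, fell from 1581 and 1546 to 1008 and 1068 CPM (−0.59 ± 0.04). These shifts were small, with list medians of −0.14 and −0.30, and none of the called falls reached 2-fold.

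Chlorophyll synthesis followed the same direction, with 14 of 20 genes lower and 2 higher. PORA (AT5G54190), the light-dependent reductase of dark-grown seedlings, had 1772 and 1741 CPM in pifq and 1045 and 1069.9 CPM in pifq;bzr1-1D (−0.73 ± 0.03, adjusted p = 1.4e-18). PORC (AT1G03630) had 105 and 97.7 CPM in pifq and 61.8 and 62.6 CPM in pifq;bzr1-1D (−0.71 ± 0.05). CHLI1 (AT4G18480), a subunit of the magnesium chelatase, fell from 511 and 507 to 359 and 355 CPM (−0.51 ± 0.03). On the haem side FC2 (AT2G30390), ferrochelatase, fell from 58.4 and 58.1 to 35.1 and 33.0 CPM (−0.77 ± 0.06). HY1 (AT2G26670), the haem oxygenase of phytochrome chromophore synthesis, rose from 129 and 134 to 163 and 153 CPM (0.27 ± 0.04). With the PIFs the photosystem and carbon fixation lists leaned the other way, with 14 higher and 4 lower of 22 and 8 higher and 4 lower of 16, where 30.8% of all genes were higher and 26.1% lower. The difference was more negative without the PIFs for 15 and 11 of these genes. Chlorophyll genes fell in both backgrounds (15 of 20 lower with the PIFs, none higher).

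Regulators of greening were split, 8 of 24 higher and 9 lower, where 5 were higher without pifq replicate 1 or pifq;bzr1-1D replicate 2. Both shares were not far above the 28.1% higher and 27.8% lower of all tested genes. GATA4 (AT3G60530) rose from 325 and 332 to 502 and 533 CPM (0.65 ± 0.04) and fell with the PIFs (difference 1.42 ± 0.05). SIG2 (AT1G08540), a plastid sigma factor, fell from 123 and 116 to 80.2 and 77.2 CPM (−0.59 ± 0.04). HYH (AT3G17609), a relative of the light-response factor HY5, fell from 7.86 and 7.90 to 3.78 and 4.32 CPM (−0.99 ± 0.13). Clock genes leaned upward, 10 of 15 higher and 1 lower with a median of 0.40. The evening gene TOC1 (AT5G61380) rose from 144 and 143 to 212 and 214 CPM (0.57 ± 0.04). PRR7 (AT5G02810), a repressor of the morning genes, rose from 69.5 and 74.0 to 123 and 120.3 CPM (0.76 ± 0.04). RVE1 (AT5G17300), a morning factor, rose from 19.5 and 18.7 to 34.8 and 32.1 CPM (0.82 ± 0.07). With the PIFs 3 of the 15 were higher and 6 lower, and the difference was more positive without them for 9.

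Small auxin-up RNA (SAUR) genes, whose products promote cell expansion, were mostly higher in pifq;bzr1-1D. Of 19 SAUR genes 15 rose, 10 of them by 2-fold or more, and 2 fell (1 under DESeq2), with a median log2 fold change of 1.01. SAUR9 (AT4G36110) had 1.13 and 1.27 CPM in pifq and 4.53 and 5.30 CPM in pifq;bzr1-1D (2.003 ± 0.19, adjusted p = 8.27e-11). SAUR16 (AT4G38860) had 0.584 and 0.532 CPM in pifq and 3.38 and 2.62 CPM in pifq;bzr1-1D (2.46 ± 0.26). SAUR32 (AT2G46690) had 13.9 and 15.2 CPM in pifq and 23.1 and 21.3 CPM in pifq;bzr1-1D (0.62 ± 0.08). The summed SAUR level was 56.8 and 56.9 CPM in pifq and 96.0 and 86.7 CPM in pifq;bzr1-1D, against 86.2 and 85.7 CPM in Col-0 and 267 and 250.2 CPM in bzr1-1D. With the PIFs 17 of 19 rose, and 10 had a more negative effect without the PIFs and none a more positive one. For SAUR9 the difference was −1.08 ± 0.25 (adjusted p = 0.000558).

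Other auxin genes showed a mixed picture. Of 17 Aux/IAA repressor genes 9 rose and 3 fell. IAA3 (AT1G04240) went from 24.99 and 24.5 to 47.6 and 43.7 CPM (0.90 ± 0.06). IAA4 (AT5G43700) rose from 146 and 141 to 241 and 213 CPM (0.67 ± 0.04). IAA8 (AT2G22670) fell from 108 and 105 to 78.0 and 75.2 CPM (−0.47 ± 0.04). For IAA3 the effects without and with the PIFs were not called different (difference 0.03 ± 0.08, adjusted p = 0.782). IAA19 (AT3G15540), chosen after its values were seen, had 1.28 and 1.105 CPM in pifq and 1.76 and 0.915 CPM in pifq;bzr1-1D and was not called (0.28 ± 0.27, adjusted p = 0.38), whereas it had 5.72 and 5.07 CPM in Col-0 and 34.0 and 35.8 CPM in bzr1-1D (difference −2.39 ± 0.30, adjusted p = 4.05e-08). GH3.2 (AT4G37390), which conjugates auxin to amino acids, rose from 10.2 and 11.5 to 29.3 and 34.4 CPM (1.53 ± 0.08), and GH3.3 (AT2G23170), of the same family, fell from 48.1 and 51.2 to 25.9 and 28.8 CPM (−0.88 ± 0.06). YUC8 (AT4G28720), an enzyme of auxin synthesis, fell from 11.8 and 11.5 to 6.83 and 6.60 CPM (−0.79 ± 0.11). The carrier gene LAX1 (AT5G01240) rose from 70.2 and 74.5 to 102 and 113 CPM (0.56 ± 0.05).

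Among the helix-loop-helix regulators of growth, 4 of 8 promoting genes rose and 1 fell, and 5 of 7 restraining genes rose and 1 fell. PRE6 (AT1G26945), a growth promoter, rose from 5.99 and 6.46 to 8.92 and 8.76 CPM (0.51 ± 0.11) but had 20.9 and 20.3 CPM in Col-0 and 46.8 and 47.1 CPM in bzr1-1D. AIF3 (AT3G17100), of a family that restrains growth, rose from 87.6 and 86.9 to 140.0 and 146 CPM (0.71 ± 0.04) and fell with the PIFs (difference 1.27 ± 0.06, adjusted p = 4.64e-19). The restraining gene IBH1 (AT2G43060) was called lower (from 3.66 and 4.17 to 1.76 and 4.12 CPM, −0.58 ± 0.21, adjusted p = 0.017), but without pifq;bzr1-1D replicate 1 its log2 fold change was 0.0519 (adjusted p = 0.866), so 1 library decides it. Shade and phytochrome target genes were 5 higher and 3 lower of 11, led by PKS4 (AT5G04190), a phytochrome kinase substrate, which rose from 11.4 and 12.2 to 30.4 and 33.8 CPM (1.43 ± 0.07).

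More XTH, aquaporin and cuticle genes rose than fell, and more expansin genes fell than rose. Of 20 xyloglucan endotransglucosylase (XTH) genes, which cut and rejoin wall polymers, 10 rose and 6 fell. XTH24 (AT4G30270) rose from 271 and 263 to 521 and 504 CPM (0.94 ± 0.04). XTH30 (AT1G32170) rose from 32.9 and 33.0 to 70.7 and 68.5 CPM (1.08 ± 0.05). XTH32 (AT2G36870) fell from 23.5 and 25.1 to 5.72 and 6.02 CPM (−2.06 ± 0.09). XTH18 (AT4G30280), chosen after its values were seen and with close copies in XTH17 and XTH19, went from 2.49 and 2.41 to 4.86 and 6.28 CPM (1.13 ± 0.15) against 7.86 and 8.13 CPM in Col-0 and 121 and 119 CPM in bzr1-1D (difference −2.78 ± 0.19, adjusted p = 4.45e-14). Expansins, which loosen walls, were 4 higher and 10 lower of 19, where 1 gene passed the filter on low counts only through pifq. EXPA8 (AT2G40610) rose from 15.9 and 15.4 to 48.2 and 51.0 CPM (1.66 ± 0.06). EXPA1 (AT1G69530) rose from 14.9 and 14.2 to 39.1 and 42.0 CPM (1.47 ± 0.07). EXPA10 (AT1G26770) fell from 14.2 and 13.0 to 7.88 and 7.91 CPM (−0.78 ± 0.10). EXPA7 and EXPA18, expansins of root hairs chosen after their values were seen, had 11 and 24 and 11 and 10 counts in pifq and 0 and 1 each in pifq;bzr1-1D.

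Aquaporins, the water channels of the plasma membrane and the vacuole, were 13 higher and 6 lower of 21 (3 lower without pifq;bzr1-1D replicate 1). The vacuolar TIP2;1 (AT3G16240) had 332 and 339.9 CPM in pifq and 915 and 958 CPM in pifq;bzr1-1D (1.48 ± 0.04, adjusted p = 1.1e-25). The plasma membrane PIP2;7 (AT4G35100) had 344 and 335 CPM in pifq and 819 and 855 CPM in pifq;bzr1-1D (1.301 ± 0.04). PIP1;3 (AT1G01620) rose from 229 and 231 to 459.8 and 486 CPM (1.04 ± 0.04). Each of these 3 rose more without the PIFs than with them, with differences of 0.34 ± 0.05, 0.25 ± 0.05 and 0.19 ± 0.05, but over the list the effect was more negative without the PIFs for 10 of 21 genes and more positive for 6. With the PIFs 18 of the 21 rose, with a median log2 fold change of 0.76 against 0.25 without the PIFs. The summed aquaporin level went from 5138 and 5202 CPM to 7602 and 8028 CPM. Cuticle genes were 9 higher and 3 lower of 16. KCS20 (AT5G43760), which elongates very long fatty acids, rose from 140.0 and 147 to 265 and 262 CPM (0.88 ± 0.04). CER6 (AT1G68530), of the same enzyme class, rose from 182 and 180.3 to 244 and 250.2 CPM (0.45 ± 0.04). With the PIFs 15 of the 16 were higher, and the effect was more negative without them for 13 and more positive for none. Cellulose genes of the primary wall moved little (5 higher and 3 lower of 9, median 0.12, and 3 higher without pifq replicate 2). Of 14 xylem and secondary wall genes tested 2 rose and 2 fell (1 rose without pifq replicate 2 or pifq;bzr1-1D replicate 1), while 13 rose with the PIFs. XCP1 (AT4G35350), a xylem protease, fell from 6.31 and 5.56 to 3.38 and 3.99 CPM (−0.72 ± 0.14) and had 11.99 and 10.6 CPM in Col-0 and 15.2 and 14.03 CPM in bzr1-1D (difference −1.08 ± 0.17, adjusted p = 2.68e-06).

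Hormone genes other than those of auxin and brassinosteroids were counted by class, where 28.1% of all tested genes were higher and 27.8% lower. The share of gibberellin metabolism genes that fell lay near that of all genes. In gibberellin metabolism 1 of 9 tested genes rose and 3 fell, and none rose without any 1 of the 4 libraries. GA3OX1 (AT1G15550), which makes the active hormone, had 27.7 and 27.7 CPM in pifq and 10.7 and 11.4 CPM in pifq;bzr1-1D (−1.34 ± 0.07, adjusted p = 1.35e-16) but rose with the PIFs, from 30.9 and 29.2 CPM in Col-0 to 57.2 and 59.6 CPM in bzr1-1D (log2 fold change 0.95 ± 0.05, difference −2.29 ± 0.09, adjusted p = 2.07e-20). GA20OX3 (AT5G07200), an enzyme of the step before, fell from 4.36 and 4.17 to 1.19 and 1.31 CPM (−1.79 ± 0.19). GA20OX2 (AT5G51810), of the same family, fell from 30.4 and 30.1 to 24.8 and 21.6 CPM (−0.36 ± 0.06). None of the gibberellin metabolism genes had a more positive effect without the PIFs, and 6 had a more negative one. Among response genes GASA6 (AT1G74670), a gibberellin-regulated peptide, rose from 24.8 and 25.6 to 76.8 and 77.4 CPM (1.61 ± 0.05). Of 12 perception and response genes tested 7 rose and 3 fell. The summed level of that list was 1677 and 1664 CPM in pifq and 1637 and 1704 CPM in pifq;bzr1-1D.

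Ethylene genes were 13 higher and 2 lower of 19. EFE (AT1G05010), an enzyme of the last synthesis step, rose from 301 and 298 to 434 and 442 CPM (0.55 ± 0.04). The kinase gene CTR1 (AT5G03730), which restrains signalling, rose from 122 and 127 to 177 and 181 CPM (0.52 ± 0.04). EIN3 (AT3G20770), the transcription factor of the response, rose from 254 and 263 to 366 and 346 CPM (0.47 ± 0.04). EFE and CTR1 fell with the PIFs (differences 1.28 ± 0.05 and 0.69 ± 0.05). ACS11, of the enzymes that make the ethylene precursor, had 124 and 133 counts in pifq and 0 and 1 in pifq;bzr1-1D, and 155 and 77 counts in Col-0 and 4 and 7 in bzr1-1D, so it was nearly absent wherever bzr1-1D was present. Cytokinin response genes were 3 higher and 5 lower of 12 (3 lower under DESeq2), where 28.1% of all tested genes were higher and 27.8% lower. Of these 12, 1 gene passed the filter on low counts only through pifq. The response regulator gene ARR7 (AT1G19050) was lower (from 21.3 and 22.0 to 12.5 and 14.7 CPM, −0.70 ± 0.08). ARR5 (AT3G48100), of the same class, was higher (from 13.4 and 12.7 to 19.6 and 20.1 CPM, 0.60 ± 0.08).

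Defence genes and peroxidases moved in both directions. Of 17 jasmonate and defence genes 8 rose and 4 fell. Under DESeq2 1 fell, and with all libraries thinned to the smallest 1 fell. Fewer also fell without pifq replicate 1, pifq replicate 2 or pifq;bzr1-1D replicate 1. In this list 1 gene passed the filter on low counts only through pifq;bzr1-1D and 2 only through pifq, so the filter set their direction. CYP81F2 (AT5G57220), which modifies indole glucosinolates, had 4.55 and 4.38 CPM in pifq and 26.4 and 28.3 CPM in pifq;bzr1-1D (2.60 ± 0.10, adjusted p = 2.96e-21). WRKY33 (AT2G38470), a regulator of pathogen responses, rose from 18.02 and 19.97 to 39.0 and 37.4 CPM (1.01 ± 0.07). PAD3 (AT3G26830), which completes the antifungal compound camalexin, rose from 1.67 and 1.80 to 4.60 and 3.60 CPM (1.28 ± 0.19) and fell with the PIFs (difference 2.12 ± 0.26, adjusted p = 2.96e-08). Of 24 class III peroxidases 9 rose and 12 fell, where 1 gene passed the filter only through pifq;bzr1-1D. AT1G49570 rose from 7.98 and 8.31 to 36.0 and 37.5 CPM (2.17 ± 0.07). AT1G05250 fell from 7.01 and 6.18 to 0.216 and 0.392 CPM (−4.54 ± 0.27) and cannot be separated from its near-identical copy AT1G05240. Abscisic acid and cold response genes were 7 higher and 4 lower of 13 (fewer higher without pifq replicate 1 or pifq;bzr1-1D replicate 2, and 2 lower under DESeq2). Those higher included COR47 (AT1G20440), a dehydrin (from 101 and 103 to 182 and 188 CPM, 0.86 ± 0.04), and RD22 (AT5G25610), a drought-response gene (from 22.9 and 22.0 to 49.3 and 49.4 CPM, 1.14 ± 0.06). Those lower included KIN2 (AT5G15970) and RD29A (AT5G52310), with log2 fold changes of −0.87 and −0.74.

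Most markers of root hairs were at or near 0 in pifq;bzr1-1D. The exceptions were RSL4, chosen after its values were seen, and RHD6. RSL4 had 25 and 17 counts in pifq and 27 and 23 in pifq;bzr1-1D, and RHD6 had 19 and 17 against 9 and 5. LRX1, a wall protein of root hairs, had 66 and 41 counts in pifq and 2 and 0 in pifq;bzr1-1D, PRP3 67 and 57 against 0 and 3, and COBL9 12 and 14 against 0 and 0. Of 8 defining root hair markers 6 were lower, and 6 stood at 3 counts or fewer in both pifq;bzr1-1D libraries, which is the most that a count of 0 allows. Their summed level was 8.56 and 7.53 CPM in pifq, 1.44 and 2.22 CPM in pifq;bzr1-1D, 13.6 and 14.9 CPM in Col-0 and 2.1 and 1.9 CPM in bzr1-1D. In the longer root hair list 5 of 13 tested genes were lower and none higher, a count that dropped to 3 under DESeq2 and without pifq replicate 1 or pifq;bzr1-1D replicate 2. In RNA of whole seedlings, fewer cells of a type and less RNA per cell cannot be told apart, which holds for every cell type marker here.

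Cell cycle genes were lower in 8 of 13 cases and higher in none, with a median of −0.74. CYCD3;3 (AT3G50070), a cyclin, fell from 30.5 and 28.4 to 16.9 and 16.7 CPM (−0.80 ± 0.07). MCM3 (AT5G46280), of the DNA replication helicase, fell from 8.06 and 9.74 to 3.27 and 2.62 CPM (−1.55 ± 0.15, adjusted p = 6.05e-11). PCNA1 (AT1G07370), the replication clamp, fell from 4.05 and 3.89 to 1.76 and 0.981 CPM (−1.42 ± 0.21). With the PIFs 6 of the 13 rose and 2 fell in bzr1-1D, and the effect was more negative without them for 9, with MCM3 at a difference of −1.99 ± 0.20 (adjusted p = 6.35e-10). Iron genes were 2 higher and 8 lower of 18. FER1 (AT5G01600), an iron storage protein, rose from 129.9 and 119.96 to 219.9 and 213 CPM (0.79 ± 0.04). FER3 (AT3G56090), its relative, fell from 55.7 and 51.1 to 29.9 and 29.7 CPM (−0.84 ± 0.06). FRO2 (AT1G01580), the root iron reductase, fell from 14.2 and 14.2 to 8.38 and 8.04 CPM (−0.79 ± 0.10). In the stomatal lineage 2 of 14 rose and 5 fell (0 and 3 under DESeq2), where 28.1% of all tested genes rose and 27.8% fell. The receptor kinase gene ER (AT2G26330) was lower (from 163 and 165 to 121 and 129.9 CPM, −0.39 ± 0.04). SDD1 (AT1G04110), a protease that limits stomatal number, was also lower (from 2.41 and 3.27 to 1.08 and 1.05 CPM, −1.41 ± 0.24).

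Seed storage and late embryogenesis genes, which normally fade after germination, rose in pifq;bzr1-1D: 12 of 15 tested genes were higher, 11 of them by 2-fold or more, and 1 was lower (median 1.38). SESA1, chosen after its values were seen, with 5 and 4 counts in pifq and 40 and 33 in pifq;bzr1-1D, passed the filter on low counts only through pifq;bzr1-1D and so had to be higher, and 1 further member was not tested. CRU3 (AT4G28520), the storage globulin cruciferin, had 15.5 and 15.997 CPM in pifq and 44.1 and 40.5 CPM in pifq;bzr1-1D (1.44 ± 0.06, adjusted p = 3.96e-19). SESA5 (AT5G54740), an albumin whose reads may be shared with its copies, had 0.389 and 0.327 CPM in pifq and 13.4 and 12.9 CPM in pifq;bzr1-1D (5.18 ± 0.21). PAP85 (AT3G22640), a storage globulin, had 0.623 and 0.736 CPM in pifq and 6.30 and 6.34 CPM in pifq;bzr1-1D (3.21 ± 0.22). The summed level of the list was 51.9 and 53.5 CPM in pifq and 114 and 111 CPM in pifq;bzr1-1D. CRA1 (AT5G44120), the other main cruciferin, chosen after its values were seen, fell from 23.4 and 24.2 to 16.4 and 16.2 CPM (−0.55 ± 0.07). With the PIFs these genes moved oppositely, 12 of 15 being lower and none higher, from 207 and 206 CPM in Col-0 to 4.16 and 4.48 CPM in bzr1-1D. In these sums the bzr1-1D libraries were thus the lowest of the 4 genotypes, and pifq;bzr1-1D lay between pifq and Col-0. Not every member had this order. SESA5 had 8.53 and 6.44 CPM in Col-0 and 0.611 and 0.605 CPM in bzr1-1D, so it was highest in pifq;bzr1-1D and lowest in pifq.

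All 4 genes listed here for the dark and sugar starvation response rose by 2-fold or more. ASN1 (AT3G47340), the asparagine synthetase induced in darkness, had 453 and 445 CPM in pifq and 1397 and 1446 CPM in pifq;bzr1-1D (1.66 ± 0.04, adjusted p = 1.59e-27). DIN2 (AT3G60140), a beta-glucosidase, had 160.4 and 161 CPM in pifq and 410.4 and 405 CPM in pifq;bzr1-1D (1.34 ± 0.04). SEN1 (AT4G35770) had 455 and 466 CPM in pifq and 1029 and 1036 CPM in pifq;bzr1-1D (1.16 ± 0.04). DIN10 (AT5G20250) had 1191 and 1228 CPM in pifq and 2404 and 2466 CPM in pifq;bzr1-1D (1.01 ± 0.04). In each the 2 pifq libraries were the lowest of all 8. ASN1 was not called between Col-0 and bzr1-1D (1755 and 1735 CPM in Col-0 and 1699 and 1719 CPM in bzr1-1D, −0.03 ± 0.03, adjusted p = 0.481), and for all 4 genes the effect was larger without the PIFs.

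**Figure D4:**
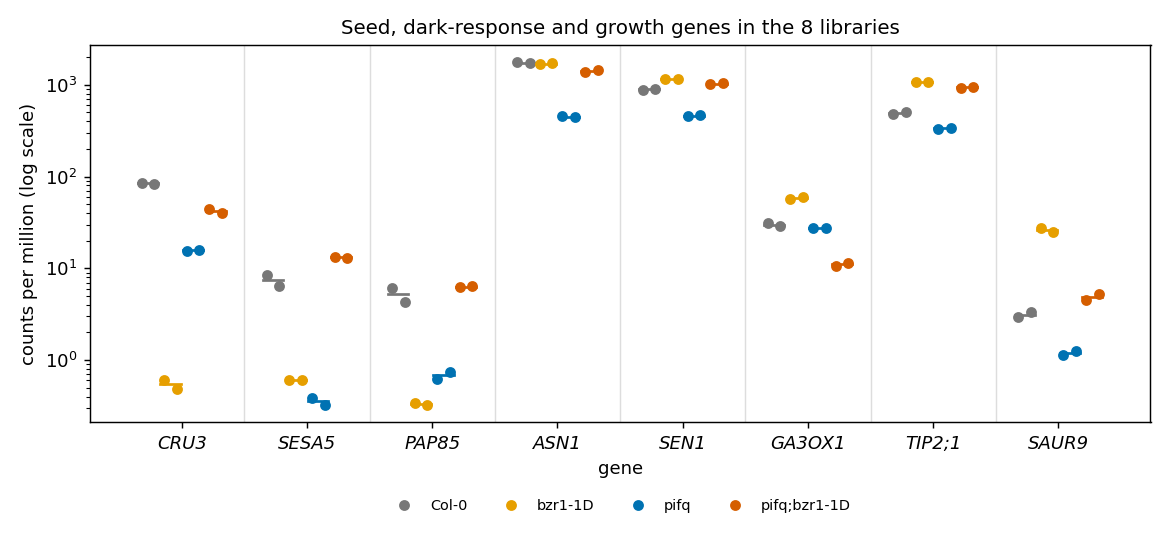
CPM (log axis) of seed storage genes (CRU3, SESA5, PAP85), dark-response genes (ASN1, SEN1), GA3OX1, the aquaporin gene TIP2;1 and SAUR9 in all 8 libraries, with points for libraries and short lines for genotype means. The seed genes are higher in pifq;bzr1-1D than in pifq but lowest or nearly lowest in bzr1-1D, GA3OX1 moves in opposite directions without and with the PIFs, and TIP2;1 and SAUR9 rise in both.

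Set beside the effect with the PIFs, the 2 comparisons share no library. With the PIFs 12064 genes were called (56.8%), 1489 of them higher by 2-fold or more (7.02%) and 926 lower (4.36%), so the count of 2-fold rises was smaller without the PIFs and that of 2-fold falls similar. Of the 2-fold rises 343 were common to both, which is 42.9% of the 800 without the PIFs and 23.0% of the 1489 with them. Of the 2-fold falls 242 were common, 29.6% of 817 and 26.1% of 926. A further 50 genes rose by 2-fold without the PIFs and fell by 2-fold with them, and 47 did the reverse. Across the 21221 genes the log2 fold changes of the 2 comparisons had a Pearson r of 0.36 and a Spearman rho of 0.32, given as a description, since genes are not independent replicates.

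The effect itself differed between the backgrounds for 10363 genes, 4646 more positive and 5717 more negative without the PIFs, of which 888 (4.18% of those tested) and 1383 (6.52%) differed by 2-fold or more. The largest negative differences by the naming rule were in KAT5, PRP2 (AT2G21140), FLS1, CHS and AT1G27580. PRP2, a proline-rich wall protein gene, had 9.30 and 7.32 CPM in pifq and 11.7 and 11.9 CPM in pifq;bzr1-1D but 12.9 and 14.05 CPM in Col-0 and 327 and 335 CPM in bzr1-1D, so that a log2 rise of 4.63 ± 0.05 with the PIFs shrank to 0.50 ± 0.10 without the PIFs (difference −4.13 ± 0.12, adjusted p = 1.36e-23). AT1G27580, an F-box protein gene, had the same form, with 30.3 and 29.5 CPM in pifq and 36.4 and 36.6 CPM in pifq;bzr1-1D and 32.6 and 33.8 CPM in Col-0 and 275 and 263 CPM in bzr1-1D. The largest positive differences by the same rule were in SESA5, CRU3, AT1G20400, AT1G20390 and AT5G50665. AT1G20390, annotated as an uncharacterized protein, had 342 and 344 CPM in pifq and 512 and 546 CPM in pifq;bzr1-1D but 503 and 481 CPM in Col-0 and 4.35 and 1.49 CPM in bzr1-1D (difference 7.996 ± 0.12). Its neighbour AT1G20400 had 7.40 and 7.94 CPM in pifq and 9.25 and 12.9 CPM in pifq;bzr1-1D but 19.2 and 17.2 CPM in Col-0 and 0.115 and 0.0403 CPM in bzr1-1D. For AT1G20390 and AT1G20400 only the bzr1-1D libraries stood near 0.

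**Figure D5:**
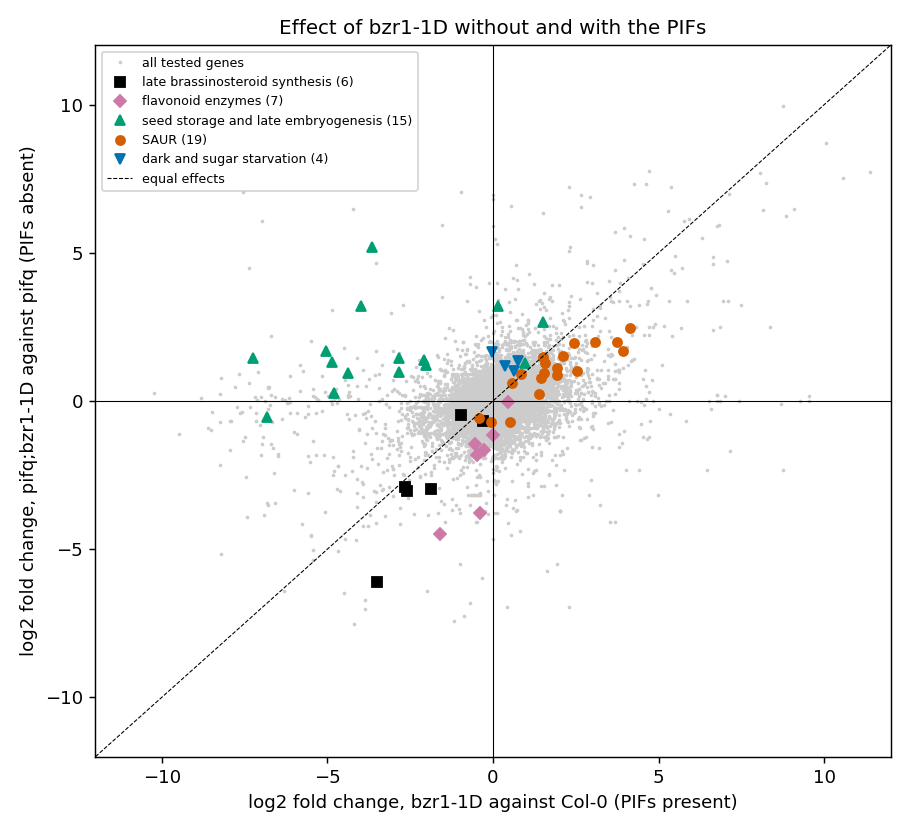
Fitted log2 fold change of each of the 21221 tested genes in pifq;bzr1-1D against pifq (vertical axis) and in bzr1-1D against Col-0 (horizontal axis), with the members of 5 gene lists marked and a dashed line for equal effects. Late brassinosteroid synthesis genes lie at the lower left, SAUR genes mostly at the upper right below the line, flavonoid enzymes low and near the middle, and most seed genes at the upper left.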

How the data were processed

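RNA-seq counts of 8 libraries were used. Per the labels' protocols, total RNA was extracted with the Spectrum Plant Total RNA kit and libraries were made with the TruSeq RNA kit. The authors deposited raw read counts for 33518 genes per library. The submitters' processing notes name TopHat, HTSeq and TAIR9. Versions, strand setting and multi-read handling stay unstated (not given in the sources used here), so values of near-identical, overlapping and antisense genes are uncertain. Reads assigned to no gene (2.68% to 4.27%) or ambiguously (1.95% to 2.08%) were left out of totals, which were 16.1 to 34.4 M. A count of 0 allows up to 3 counts, or 0.0836 to 0.196 CPM by library, and such floors cover counting error only.

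Counts were tested with edgeR 4.0.16 in R 4.3.3 (quasi-likelihood, TMM factors of 0.942 to 1.04, filterByExpr leaving 21221 genes). A single model of all 8 libraries, with 1 coefficient for each genotype, left 4 residual degrees of freedom and 1 shared estimate of spread. The contrasts were pifq;bzr1-1D against pifq, bzr1-1D against Col-0, and their difference. P-values were adjusted by Benjamini-Hochberg over all tested genes, and genes were called at 0.05. SE is the absolute log2 fold change divided by the square root of F. Gene names come from the annotation of assembly TAIR10.1, which held 32709 of the gene codes. It is not the build of the counts, so no coordinates are given, and promoter and protein sequences are not analysed here.

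The comparison, the 48 gene lists (646 members, 601 tested) and the rule for named genes were chosen with earlier results of these data known. The rule took the 5 mutated genes, the 10 highest and 10 lowest called fold changes whose higher genotype averaged at least 10 CPM and whose replicates did not overlap, the 5 most positive and 5 most negative called differences at 10 CPM or more in pifq or pifq;bzr1-1D, and up to 5 members per list by smallest p. Genes named outside it are said to be so. One gene that it picked is not reported here. Alternatives were RLE size factors, no count filter, DESeq2 1.42.0, the 4 libraries alone, a replicate block, thinning to 16109238 counts, leaving out each library, and, chosen after seeing the data, nuclear protein-coding genes alone.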

Additional observations from a re-analysis of the deposited data

Results flagged for a closer look

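A result was picked out here when the bzr1-1D effect without the PIFs differed from that with them, by edgeR's test of the difference, by 8-fold or more (3 on the log2 scale). Of the 251 genes considered, 13 met this. The log2 difference was −5.07 for KAT5, −4.13 for PRP2, −3.59 for MYB75, −3.37 for FLS1 and −3.31 for ACS11, all more negative without the PIFs. The values of MYB75 and ACS11 are fitted on libraries with 7 and 0 and with 0 and 1 counts in pifq;bzr1-1D and depend on the prior count.

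The 8 genes more positive without the PIFs were AT1G26240 (5.41), M17 (6.19), PAP85 (7.21), AT5G50665 (7.70), AT1G20390 (7.996), AT1G20400 (8.26), CRU3 (8.70) and SESA5 (8.83). In 7 of them the bzr1-1D libraries lay far below Col-0: M17, a late embryogenesis gene, had 14.3 and 20.1 CPM in Col-0 and 0.458 and 0.686 CPM in bzr1-1D and 6.73 and 7.28 CPM in pifq and 17.4 and 17.9 CPM in pifq;bzr1-1D, and AT5G50665 had 25.4 and 23.7 CPM in Col-0 and 0.0764 and 0.0403 CPM in bzr1-1D and 23.9 and 23.6 CPM in pifq and 12.9 and 12.6 CPM in pifq;bzr1-1D. AT1G26240 was the exception, with 1.37 and 1.97 CPM in Col-0 and 1.15 and 2.18 CPM in bzr1-1D.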

How the results depend on the processing

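Counts of called genes kept within 1.5 times under every alternative run, except that 3710 genes instead of 5717 had a more negative effect without the PIFs under DESeq2. For pifq;bzr1-1D against pifq the alternatives gave 8855 (DESeq2) to 11906 called genes against 11860, and leaving out 1 library gave 9709 to 11906. All but 2 of the 8855 DESeq2 calls were also edgeR calls (8853 shared). With the replicate number as a block 11842 genes were called, of which 11742 were shared. The deviations of replicates 1 and 2 were nearly uncorrelated between genotypes (−0.0199 to 0.0299), but counting noise can hide a shared batch. Whether the numbers pair the libraries was therefore not settled, and the block is reported only here. Of 3760 values for 251 named genes under alternatives, 76 lost the call, 4 gained it and 1 reversed, which was IBH1, whose log2 fold change of −0.58 became 0.0519 without pifq;bzr1-1D replicate 1 and −1.18 without replicate 2. The cause was not tested. These changes touched 26 genes, among them PIF3, RHD6 and MYB90. Of 1440 counts of list members 69 moved by over 1.5 times, mostly counts of 5 or fewer. The median of all genes stayed between −0.0371 and 0. With 2 libraries per genotype a lone library is assumed to vary like the others when its partner is left out, and small changes of genes at low counts are limited by the 16.1 M counts of pifq;bzr1-1D replicate 2.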

Other observations

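The 2 pifq;bzr1-1D libraries differed from each other in ribosomal RNA and chloroplast-encoded genes, of which 3 chosen after their values were seen are given. AT2G01010, a ribosomal RNA gene, had 3656 and 4062 CPM in pifq and 6806 and 3532 CPM in pifq;bzr1-1D. ATCG00490, the Rubisco large subunit, had 65.9 and 68.1 CPM in pifq and 92.2 and 28.0 CPM in pifq;bzr1-1D, and ATCG00020, a photosystem II reaction centre protein, 39.5 and 37.2 and 50.3 and 10.3 CPM. In both, replicate 1 was above and replicate 2 below the pifq libraries. Without organelle and non-coding genes 11632 genes were called, 11508 of them also called in the whole table.

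Genes that changed by 16-fold or more were counted by chromosome. On chromosome 5, 28 rose and 14 fell that far among 4885 tested genes, and on chromosome 1, 21 and 10 among 5537. On chromosome 2 the counts were 2 and 4 among 3246 tested genes, on chromosome 3 they were 9 and 3 among 4171, and on chromosome 4 they were 6 and 3 among 3224. Over all 21221 tested genes 66 rose and 34 fell that far. The spread over chromosomes was not tested.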
